A study of Mus musculus with 3 samples.

Results

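The uroplakins are the 5 genes Upk1a, Upk1b, Upk2, Upk3a and Upk3b, read here in the genital tubercle, the bud from which the external genitalia grow. They were taken as every probe set that the platform annotation gives to exactly 1 of these symbols. That gave 9 probe sets of the 45037 that are not controls, for 5 of the 18193 genes with such a probe set. Upk1b was read by 4 probe sets, Upk3b by 2, and Upk1a, Upk2 and Upk3a by 1 each. Each of the 3 samples was the unpooled tubercle of 1 FVB/N mouse embryo at embryonic day 14 (Theiler stage 22), hybridised to 1 array. All 3 are labelled male and SMAA/EYFP transgenic. The SMAA/EYFP reporter is named for Acta2 (smooth muscle actin), came from the sires, and guided the dissection. There was no untreated, wild-type, female or other control group. The labels differ only in the developmental landmark, which was indented footplate borders in replicates 1 and 2 and visible fingers in replicate 3. Nothing says whether the embryos shared a litter, so the spread between samples mixes animals, dissection, RNA amplification and hybridisation.

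Uroplakins are membrane proteins of the urothelium, the lining of the bladder and the adjoining urinary tract, where they assemble into rigid plaques on the surface of the superficial (umbrella) cells. UPK1A and UPK1B are tetraspanins, proteins that cross the membrane repeatedly, and each binds a single-pass partner. UPK1A pairs with UPK2, and UPK1B pairs with UPK3A or UPK3B. In the tubercle the urethral plate, an endodermal epithelium that is continuous with the lining of the urogenital sinus, lies inside mesenchyme and under a surface ectoderm. Outside the urinary tract Upk3b and Upk1b are also known from mesothelium, the sheet that covers the body cavities.

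Signals are deposited intensities, and a probe set was called above background where it exceeded the 95th percentile of 81 probe sets of odour and taste receptors in the same array. These limits were 136, 253 and 197 in replicates 1, 2 and 3. Of the genes that mark the tubercle, Hoxd13, Isl1 and Tbx4 were above background in every sample, and Hoxa13 only in replicate 1. In replicate 3 the measured Y-linked genes Eif2s3y, Kdm5d and Uty were all below background. Xist by its brightest probe set read 61883 there, against 8.05 and 118 in replicates 1 and 2, so replicate 3 goes against its male label. Of the 3 Xist probe sets, at least 1 other was above background in every sample. Replicate 1 read lower than the others in the 18S control probe sets and had the highest ratio of 3′ to 5′ signal for Gapdh, beta-actin and pyruvate carboxylase (21.5, 7.38 and 12.7), though not for the transferrin receptor. Liver genes also differed, with Alb at 42766, 9061 and 1400 in replicates 1, 2 and 3. Precision throughout is limited by the number of arrays.

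Upk1b and Upk2 were above background in every sample, Upk3a in none, and Upk1a and Upk3b in some. By probe set, 5 of 9 were above background in every sample, where 48.0% of all probe sets were. The remainder were 2 above background in 2 samples, 1 above it in 1 sample and 1 above it in none. In replicates 1, 2 and 3 the count was 8, 7 and 5 of 9, beside 57.2%, 55.1% and 56.1% of all probe sets. Without replicate 3, whose sex label is in doubt, 7 of 9 probe sets were above background in both remaining samples, beside 49.9% of all probe sets. The same was so for 4 of 5 genes, for which no share over all genes was taken. These shares lie near those of the array, or rest on 9 probe sets where they do not, and no test was made of them.

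**Figure D1:**
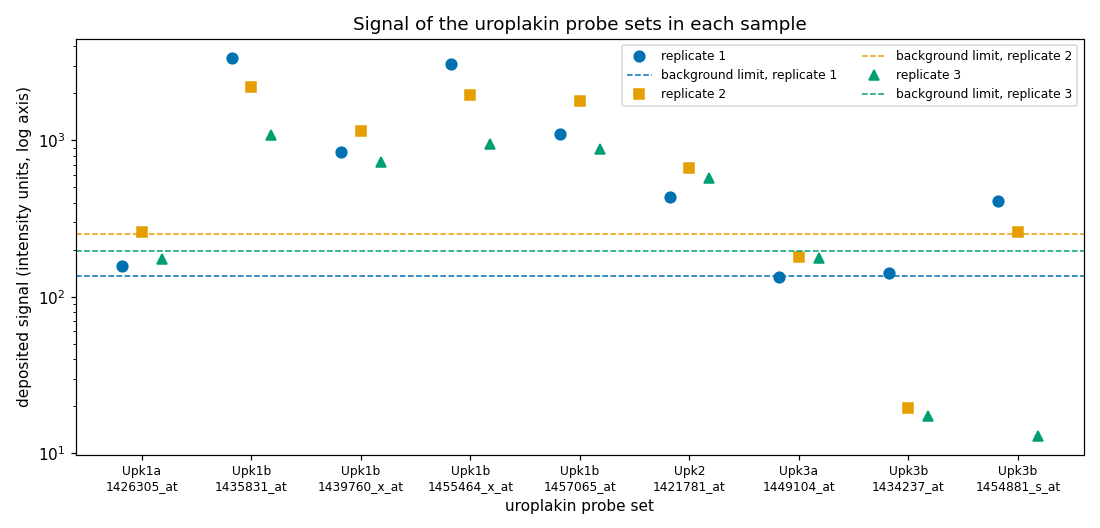
Deposited signal (intensity units, log axis) of each of the 9 uroplakin probe sets, with 1 point per sample and a dashed line at each sample's background limit. The Upk1b and Upk2 points lie above their own sample's line in all 3 samples, whereas Upk1a, Upk3a and part of Upk3b lie near or under it.

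Among the tetraspanin members, Upk1b was read at 3375, 2184 and 1081 in replicates 1, 2 and 3 by the probe set 1435831_at. That is a mean of 2213 ± 1147 (SD, n = 3), and the signal was 24.9, 8.63 and 5.47 times the background limit. The second probe set made to the same accession, 1455464_x_at, read 3097, 1948 and 945. Both ran downward in the order of replicate 1, replicate 2 and replicate 3, an order held by 16.5% of the probe sets above background in every sample. The other Upk1b probe sets were ordered otherwise. The probe set 1457065_at read 1091, 1790 and 886 (1256 ± 474, SD, n = 3), and 1439760_x_at read 845, 1147 and 731 (908 ± 215, SD, n = 3), so both had their highest deposited signal in replicate 2. The suffix "_x_at" marks a probe set with probes that may also match other sequences.

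All 4 probe sets of Upk1b were lowest in replicate 3, as were 26.3% of all probe sets above background in every sample. That held with samples aligned on the median of probe sets above background in every sample, with no alignment (29.4% of all), and when medians over the whole array were aligned (24.3%). The size of the difference varied with the probe set. Replicate 1 was 3.32-fold above replicate 3 by 1435831_at and 3.48-fold by 1455464_x_at, after alignment. The same samples differed 1.31-fold by 1457065_at and 1.23-fold by 1439760_x_at. Within an array, the ratio of 1435831_at to 1455464_x_at was nearly constant, at 1.09, 1.12 and 1.14 in replicates 1, 2 and 3. The ratio of 1435831_at to 1457065_at was 3.09 in replicate 1 and 1.22 in each of the others. The probe sets thus parted mainly in replicate 1, the sample with the high 3′ to 5′ control ratios and low 18S signals, whose part in this was not tested. The 4 probe sets share 1 gene and the same 3 RNA samples, so they are not replicates of each other.

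The other tetraspanin member, Upk1a, read 157, 258 and 175 in replicates 1, 2 and 3 on its single probe set, 1426305_at. It stood at 1.16 and 1.02 times the background limit in replicates 1 and 2 and at 0.885 times the limit in replicate 3. Its samples lie so close to their limits that the call rests on where the limit is drawn. With the limit at the 99th percentile of the receptor probe sets Upk1a was above background in 0 samples, and at the 90th percentile in 3. In bulk tissue, a low signal from few cells and from little RNA per cell cannot be told apart.

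Upk2, the single-pass partner of UPK1A, had the smallest SD of aligned log2 signal, over 3 samples, of the members above background in every sample. Its probe set 1421781_at read 435, 661 and 572 in replicates 1, 2 and 3, a mean of 556 ± 114 (SD, n = 3). These are 3.20, 2.61 and 2.90 times the background limits, and Upk2 remained above background in all 3 samples at the 99th and 90th percentile limits too. After alignment its samples differed by at most 1.30-fold. Replicate 1 was its lowest sample with that alignment, whereas Upk1b was lowest in replicate 3. When medians over the whole array were aligned, replicate 2 was the lowest for Upk2.

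Upk3a, a partner of UPK1B, was above background in no sample, like 35.5% of all probe sets. Its probe set 1449104_at read 134, 180 and 177, at 0.988, 0.710 and 0.894 times the limits of replicates 1, 2 and 3. The value in replicate 1 was thus just under the limit, and with the 90th percentile limit Upk3a was above background in 2 samples. Its partner UPK1B was read well above background in the same samples, a comparison of calls and not of amounts.

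Upk3b, the other partner of UPK1B, had signals from clearly above to far below the limit. The probe set 1454881_s_at read 407, 259 and 12.9 in replicates 1, 2 and 3, at 1.02 and 0.0655 times the limits of replicates 2 and 3, and the suffix "_s_at" marks a probe set that can read several transcripts. Replicate 1 was 1.84-fold above replicate 2, and at least 2.19-fold above replicate 3, where the signal was below background. Replicate 2 was at least 1.19-fold above replicate 3. The other Upk3b probe set, 1434237_at, made to the same accession, read 143, 19.3 and 17.3 and passed the limit only in replicate 1, at 1.05 times it. With the 99th percentile limit 1454881_s_at was above background only in replicate 1 and 1434237_at in no sample. In replicate 2 one probe set was above background and the other was not.

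Upk3b lies next to its relative Upk3bl on the mouse reference assembly GRCm38.p6. Upk3bl read 519, 464 and 310.4 in replicates 1, 2 and 3, each above its limit. It had the same order of samples as 1454881_s_at. Its lowest signal was above the limit of replicate 3, where both probe sets of Upk3b were below it.

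The spread between samples was set against that of all 21612 probe sets above background in every sample, whose median SD of aligned log2 signal was 0.36. Upk1b had an SD of 0.86 by 1435831_at and 0.90 by 1455464_x_at, larger than 91.2% and 92.2% of those probe sets. It had an SD of 0.44 by 1457065_at and 0.26 by 1439760_x_at, larger than 61.5% and 29.8%. Upk2 had an SD of 0.20, larger than 19.9%. The spread of Upk1b between samples was therefore wide by one pair of probe sets and ordinary by the other. Without replicate 3, replicates 1 and 2 differed 1.81-fold and 1.86-fold by 1435831_at and 1455464_x_at, with replicate 1 higher. They differed 1.40-fold and 1.16-fold by 1457065_at and 1439760_x_at, with replicate 2 higher. When medians over the whole array were aligned, 1439760_x_at was instead highest in replicate 1. The median SD over the 5 uroplakin probe sets was 0.44 with all samples. As 4 of these probe sets are of Upk1b, it describes mainly that gene and not the family. It was 0.62, 0.27 and 0.34 without replicates 1, 2 and 3, beside medians of 0.27, 0.28 and 0.36 over all probe sets above background.

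**Figure D2:**
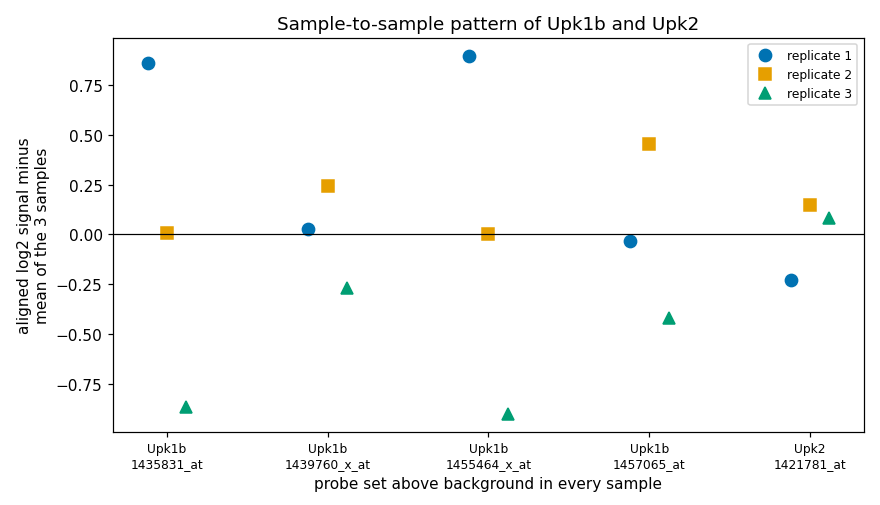
Aligned log2 signal of each of the 5 probe sets above background in every sample, minus its mean over the 3 samples, with 1 point per sample. The Upk1b probe sets 1435831_at and 1455464_x_at range from 0.86 and 0.90 in replicate 1 to -0.87 and -0.90 in replicate 3, 1439760_x_at and 1457065_at peak in replicate 2, and Upk2 is lowest in replicate 1.

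The developmental landmark was compared by setting replicate 3 against replicates 1 and 2, the contrast in which the labels differ. Fitted with limma over the 29065 probe sets that passed the limit in 1 or more samples, it called 0% of them at a Benjamini-Hochberg adjusted p under 0.05, and 2.08% (604) had an unadjusted p under 0.05. None of the 8 uroplakin probe sets tested was called, and the 1 of Upk3a was below background throughout and not tested. Upk1b was lower in replicate 3 by all 4 probe sets, with log2 differences of -1.30 ± 0.70 (SE) by 1435831_at, -1.35 ± 0.71 by 1455464_x_at, -0.63 ± 0.64 by 1457065_at and -0.40 ± 0.61 by 1439760_x_at. Upk2 differed by 0.12 ± 0.62, with signals in replicates 1 and 2 on both sides of that in replicate 3. In each of these the limma adjusted p was 1.00.

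The lone sample is assumed to vary like the others in this fit, which leaves 1 residual degree of freedom. The landmark cannot be told apart from the doubtful sex label or any other feature of replicate 3. Even Xist by its brightest probe set, at 61883 in replicate 3 against 8.05 and 118 in replicates 1 and 2, was not called. The lack of a call is thus no evidence that a uroplakin was unchanged. Upk3b, below background in replicate 3 by both probe sets, has only the bounds given above for that sample.

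**Figure D3:**
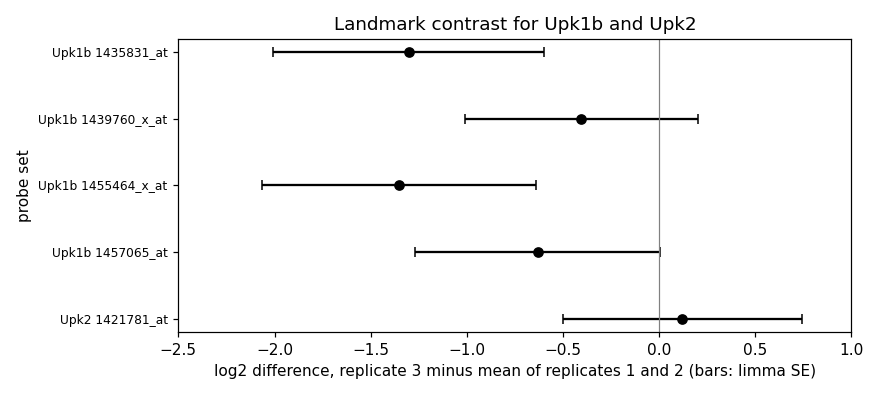
Log2 difference of replicate 3 from the mean of replicates 1 and 2, with limma SE bars, for the 5 probe sets above background in every sample. The Upk1b points lie between -1.35 and -0.40 and the Upk2 point at 0.12, and none passed the adjusted threshold.

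Epithelial and urothelial context genes were read in the same arrays, from lists chosen with earlier results of these data known. Each listed gene was read by its brightest probe set. By that rule 11005 of the 18193 genes, not counting Upk1b, were above background in every sample. The counts for the lists below are to be read beside that share. Of the keratins listed for urothelium, 8 of 10 were above background in every sample. Krt20, a keratin of umbrella cells, and Krt13, of intermediate cells, were in none. For the keratins and for the regulators below, bulk signals do not tell which epithelium of the tubercle they came from, its surface ectoderm included. Krt20 read 97.2, 158 and 76.0 in replicates 1, 2 and 3. The basal keratin Krt5 read 15308, 13056 and 10119, and the simple-epithelial keratins Krt8 and Krt18 read 6311, 4267 and 2734, and 2808, 2336 and 1653. Krt7 read 2212, 2256 and 1177, and Krt19 2003, 1958 and 510.0.

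All 8 of these keratins were lowest in replicate 3 under each of the 3 alignments, as Upk1b was, beside 26.3% after alignment of all probe sets above background in every sample. This was not particular to keratins. The 3 liver genes above background in every sample were lowest there under each alignment, and the 3 smooth muscle genes after alignment, against 1 of 8 mesenchyme genes. The keratins were also all highest in replicate 1 after alignment, beside 43.5% of those probe sets. With no alignment this was so for 6 of 8, beside 32.3%. The median difference from the mean of the samples was 0.42, 0.02 and -0.48 on the log2 scale in replicates 1, 2 and 3. Of the 5 uroplakin probe sets above background in every sample, the 4 of Upk1b were lowest in replicate 3 and that of Upk2 was not. These stand for only 2 genes.

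**Figure D4:**
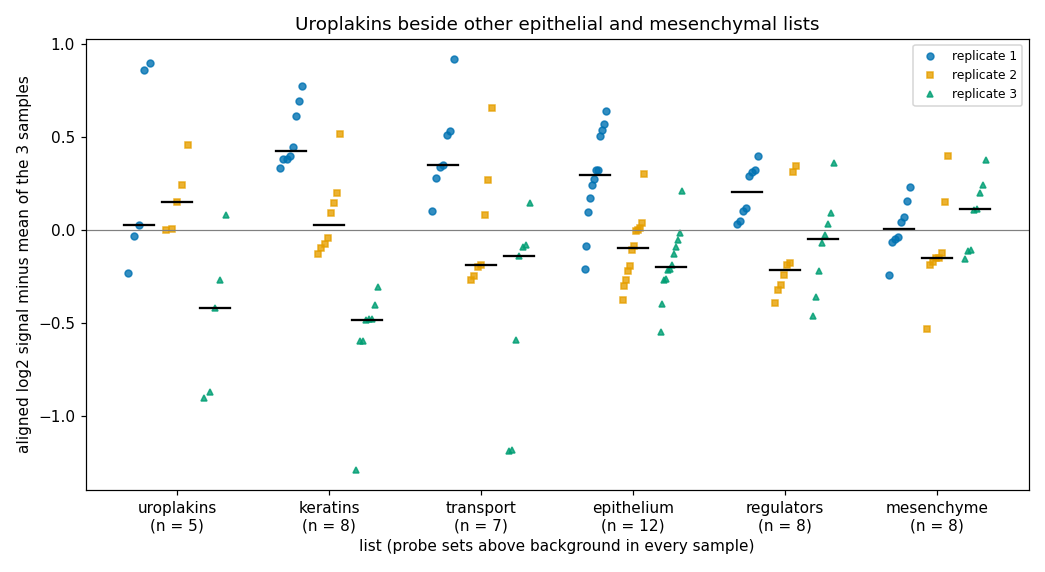
Aligned log2 signal minus its mean over the 3 samples for the uroplakins and 5 lists, with 1 point per probe set and sample and a black bar at the median. The keratins have medians of 0.42, 0.02 and -0.48 in replicates 1, 2 and 3, and the mesenchyme genes 0.004, -0.15 and 0.11.

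General epithelial genes were above background in every sample for 12 of 13. The adhesion gene Epcam read 17515, 14903 and 15568 and E-cadherin (Cdh1) 5839, 6233 and 4762 in replicates 1, 2 and 3. The tight junction genes Cldn7 and Cldn6 read 4106, 2625 and 2432, and 413, 559 and 586. The median difference of this list was 0.30, -0.10 and -0.20, and its summed signal was 121466, 107404 and 98542. Uroplakins were also set against the mean log2 signal of these 12 genes within each array. The 12 are of epithelium in general, so the ratio does not adjust for the amount of urethral epithelium. Upk1b spanned 2.41-fold and 2.53-fold between samples by 1435831_at and 1455464_x_at, from replicate 1 down to replicate 3. By 1439760_x_at and 1457065_at it spanned 1.51-fold and 1.83-fold, with the highest ratio in replicate 2. Upk2 spanned 1.71-fold, and replicate 1 had its lowest ratio.

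Of 10 regulators of urothelial growth and differentiation, 8 were above background in every sample. Trp63, a transcription factor of basal cells, read 23542, 18806 and 19204, Klf5 2239, 3136 and 1792, and Grhl3, which acts in the terminal differentiation of urothelium, 1730, 1363 and 1198. Pparg, a nuclear receptor that drives uroplakin expression in cultured urothelial cells, read 106, 232 and 310.0, passing the limit only in replicate 3. Ehf, an epithelial Ets factor, read 4.77, 281 and 261, passing the limit in replicates 2 and 3. Of these regulators 5 were lowest in replicate 2 and 3 in replicate 3 after alignment, beside 42.0% and 26.3% of all probe sets above background in every sample.

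Of 8 genes of vesicle traffic, some of which carry uroplakins to the apical membrane, 7 were above background in every sample. Rab27b, a GTPase of the fusiform vesicles that hold uroplakins, read 1945, 2477 and 628, and Myo5b, a motor of apical recycling, 1053, 786 and 261. Rab11a and Rab8a read 7576, 6125 and 5780, and 3316, 2534 and 2612. Snx31, a sorting nexin that binds uroplakins, read 308, 164 and 192, passing the limit only in replicate 1. In this list 3 genes were lowest in replicate 3 and 4 in replicate 2 after alignment, beside 26.3% and 42.0% of all probe sets above background in every sample. With no alignment they were 5 and 2.

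Of 17 other tetraspanins measured, 15 were above background in every sample. Cd9 read 2712, 3395 and 1937, Cd81 32145, 21215 and 28708, Cd82 953, 827 and 1134 and Cd151 8418, 10846 and 5416. Tspan8 read 1349, 1024 and 266, with the order of samples of the Upk1b probe set 1435831_at, and Tspan1 was above background in no sample. Of the 15, 3 were lowest in replicate 3 and 11 in replicate 2, beside 26.3% and 42.0% of all probe sets above background in every sample.

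Markers of the sources that a tubercle dissection could hold were read beside the uroplakins. Of the urethral endoderm genes Shh read 12643, 16367 and 12521, Foxa1 1625, 1243 and 1440 and Foxa2 288, 586 and 327, each above background in every sample, while Fgf8 was in none. Of the mesothelium genes 1 of 6 was above background in every sample, namely Bnc1 (1236, 1248 and 1575). Gpm6a (603, 590.4 and 172) passed the limit in replicates 1 and 2 only, like the Upk3b probe set 1454881_s_at, and both genes were named after their values were seen. The defining markers Msln (54.3, 61.4 and 14.0), Lrrn4 (119.8, 123.1 and 69.6), Wt1 (134, 100.5 and 4.46) and Muc16 were above background in none. The summed signal of the 6 genes was 2250, 2297 and 1940 in replicates 1, 2 and 3, and without Bnc1 it was 1013, 1049 and 365. The sum without Bnc1 holds only Gpm6a and genes that were below background in every sample.

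Kidney and nephric duct genes were above background in every sample for 2 of 5, Ret among them, and Pax8, Lhx1 and Cdh16 in none. Hindgut genes were above background in every sample for 0 of 6, and in replicates 1, 2 and 3 for 3, 1 and 0, with Fabp1 at 1001, 288 and 172, while Cdx2, Cdx1 and Vil1 were above background in none. Liver genes were above background in every sample for 3 of 6, with a summed signal of 113076, 51840 and 8966. Afp read 52165, 40064 and 7049, Apoa1 3566, 363 and 14.9, and Ttr 10438, 1896 and 369. The order of replicates 1, 2 and 3 in the liver sums is that of the Upk1b probe sets 1435831_at and 1455464_x_at and of Upk3b by 1454881_s_at. The epithelium, urothelial keratin, regulator, transport, hindgut and smooth muscle sums fell in the same order, but by unlike amounts. The epithelium sum, for example, went from 121466 in replicate 1 to 98542 in replicate 3. All these sums are of deposited signals without alignment, and a shared order of 3 values does not tell sources apart. The sums of the remaining multi-gene cell type lists and of the tetraspanins were ordered otherwise. Of all probe sets above background in every sample, 16.5% held this order after alignment. Erythroid genes were above background in every sample for 5 of 6, and 4 of these were lowest in replicate 3 under each of the 3 alignments, as Upk1b was. The red cell anion exchanger gene Slc4a1 read 18738, 6337 and 1686 in replicates 1, 2 and 3, the transcription factor gene Klf1 3189, 843 and 292, and Alas2, of haem synthesis, 2421, 2000 and 787. The globin genes were ordered otherwise, with Hbb-bh1 at 622, 2004 and 513 and Hbb-y at 59853, 86889 and 77722, and the probe set of Hba-a1 was above background in no sample. The summed signal of the list was 84833, 98100 and 81018.

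Smooth muscle genes were above background in every sample for 3 of 8, with Acta2 at 5273, 2736 and 2378 and a summed signal of 6597, 4076 and 3323 in replicates 1, 2 and 3. Genes of differentiated epidermis were so for 6 of 9, with Krt10 at 5242, 4506 and 6806 and a summed signal of 13089, 10361 and 11297, and Flg, Ivl and Dsc1 were above background in none. The part of liver, blood, hindgut, mesothelium or other tissue in the uroplakin signals was not tested.

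Genes with a sample pattern most like each member were sought among 11005 genes above background in every sample, as the distance between aligned log2 profiles centred on their mean over 3 samples. For Upk1b by 1435831_at the nearest were Slc25a37 (0.060), Lyz2 (0.072) and Fech (0.077), and the same genes were nearest to 1455464_x_at. Slc25a37, a mitochondrial iron carrier gene, and Fech, of haem synthesis, are known for their role in erythroid cells, and Lyz2 is a lysozyme gene. Of the erythroid markers given above, Slc4a1, Klf1 and Alas2 shared the order of these probe sets, and the globin genes did not. The part of blood in this likeness was not tested. Slc25a37 read 7184, 4926 and 2354 in replicates 1, 2 and 3. For 1457065_at the nearest were Pdgfd, Fam228b and Ap2a1, and for 1439760_x_at Thoc6, Wdsub1 and Vwce. The probe sets of Upk1b thus shared no nearest gene between these pairs. For Upk2 they were Rab11fip3, Srms and 2310075K07Rik. With 3 samples such likeness is common, and 132 genes lay within 0.1 of Upk2 and 158 (1.44%) within 0.1 of 1439760_x_at, against 4 for 1435831_at.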

How the data were processed

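The members and gene lists were chosen with earlier results of these data known. RNA of 3 tubercles, amplified in 2 rounds per the labels' protocols, was measured on 1 array each. The values that the authors deposited are linear intensity, 1 per probe set, and GCOS is named in the submitters' processing notes, its version and algorithm not given in the sources used here. Every sample had a mean of 1500.0 after 2% of values were trimmed from either end, which shows a common scaling by the authors.

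Of 45101 probe sets, 64 controls were left out. Background limits used 81 olfactory, vomeronasal and bitter taste receptor probe sets, so 5% of these pass by construction. Signals under 1 were set to 1, log2 transformed, and aligned on the median of the 21612 probe sets above background in every sample, where medians had differed by 0.23. Listed genes were read by their probe set with the highest mean, and like genes by the smallest profile distance. Of each list the text names genes only from its first 4 measured, those above background in no sample and those with a range over 2 on the log2 scale, besides Bnc1 and Gpm6a. Where a side was below background, the fold is a bound against the limit. The landmark contrast used limma 3.58.1 (R 4.3.3; lmFit, eBayes, two-sided, Benjamini-Hochberg) and was tested on simulated data. P-values rest on the spread between replicates 1 and 2, drawn by eBayes toward that of all probe sets tested. Replicate 3, alone in its arm, adds none, and the p-values speak only of these samples. Alternatives changed the limit, alignment, floor, filter and replicates.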

Additional observations from a re-analysis of the deposited data

How the results depend on the processing

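With the limit at the 99th and 90th percentile, 5 and 6 uroplakin probe sets were above background in every sample. Leaving out 1 replicate gave 5 to 7 probe sets and 2 to 4 genes, the highest without replicate 3. The median SD of log2 signal over the 5 probe sets, 4 of them of Upk1b, was 0.27 to 0.62 with 1 replicate left out. The landmark contrast called 1 probe set when limited to those above background in every sample and 86, with 1 of a uroplakin, when medians over the whole array were aligned. That 1 was of Upk3b, whose signal in replicate 3, the single sample of its arm, was below background, so the call supports nothing. When medians over the whole array were aligned, limma gave each uroplakin probe set the same SE of 1.15 in place of its own spread. The cause of the low Upk3b signal in replicate 3 was not tested. Upk3b was not tested where the fit was limited to probe sets above background in every sample. The log2 difference of replicate 3 reversed for Upk1a without replicate 2 (0.065, and -0.42 without replicate 1) and for Upk2 without replicate 1 (-0.068, and 0.31 without replicate 2), values without a residual degree of freedom and so without a test. Upk1a was below background in replicate 3, so its sign has no meaning there. The other signs of uroplakin differences held in each alternative run, but Upk3b was also below background in replicate 3. By 1434237_at without replicate 1 its difference (-0.017) was between signals that were both below background, so that sign has no meaning. Any probe set of a gene in place of the brightest gave 82 list genes above background in every sample against 81. No paired analysis was possible because the labels give 1 group. Detection of Upk1a, Upk3a and Upk3b is limited by signals within a few percent of the background limit in at least 1 sample.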
